A study of Rattus norvegicus with 3 samples.

Results

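The genes described here encode the matrix metalloproteinases (MMPs), the ADAM and ADAMTS metalloproteinases and the tissue inhibitors of metalloproteinases (TIMPs). They were taken as every non-control probe whose gene name on the array began with Mmp, Timp or Adam followed by a digit, or with Adamts. This gave 84 probes for 72 genes (22 MMP, 4 TIMP, 25 ADAM and 21 ADAMTS) of 30367 probes for 26130 gene names in all. The ADAMTS names include 5 ADAMTS-like genes. The rule used gene names and no measured value, but it was chosen with earlier results of these data known. Of the probes, 17 of the 84 had 1 spot per array, 59 had 2 and 8 had 10.

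RNA came from ROS17/2.8, an osteoblast-like line from a rat osteosarcoma, and was labelled with Cy3 and hybridised to 3 one-colour Agilent rat arrays. All cells had been grown to confluence and kept in a mineralization medium with ascorbate phosphate and a glycerophosphate. The high dose group received polyphosphate, a linear chain of phosphate residues, at 1 mg/ml for 24 h, the low dose group received 0.01 mg/ml for 24 h, and the control group received none, with no time given in the labels. There was 1 array per group, so no value below has a replicate check and none has a p-value, and the position of an array on the slide and its group cannot be told apart. The line is 1 clone, and it stands for osteoblasts only as far as a tumour line does.

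MMPs cut collagens and other proteins of the extracellular matrix. Collagenases open the triple helix of fibrillar collagen, gelatinases digest the unwound chains, and membrane-type MMPs act at the cell surface and activate other MMPs. ADAMs are membrane proteins, many of which release the outer part of other surface proteins. ADAMTS enzymes are secreted and process procollagen or cleave proteoglycans, while TIMPs bind and block the active site of MMPs and of some ADAMs and ADAMTSs. In bone, Mmp13 is known as the collagenase of osteoblasts and hypertrophic chondrocytes, and its promoter is a textbook target of RUNX2 and of the AP-1 proteins FOS and JUN.

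The upstream 250 bases of Mmp13 are shown because this gene, the main rodent interstitial collagenase, was not detected on any array, while most of its known regulators were. The sequence is from RefSeq (GRCr8, chr8:12782579-12782828, plus strand). Capitals mark, from left to right, a RUNX motif (ACCACA), an ETS motif (AGGAAG) and an AP-1 motif (TGANTCA).

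Mmp13 upstream: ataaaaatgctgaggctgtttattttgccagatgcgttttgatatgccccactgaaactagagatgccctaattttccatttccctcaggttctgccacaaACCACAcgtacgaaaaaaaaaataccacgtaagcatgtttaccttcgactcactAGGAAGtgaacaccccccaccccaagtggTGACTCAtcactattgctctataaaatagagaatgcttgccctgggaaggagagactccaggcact

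Each motif was searched on both strands in the 300 bases from 250 before to 50 after the start of every gene in the RefSeq table, and the matches do not overlap in the Mmp13 sequence. Of 33469 such promoters, 7.33% held the AP-1 motif, 17.3% the RUNX motif, 34.5% the ETS motif and 0.484% all 3. The AP-1 motif was present in 7 of the 10 promoters of the MMP genes, Mmp13 included, that form a row on chromosome 8, and in 2 of the other 43 promoters that matched a member. In all, 49 of the 72 genes matched the table. A match of these letters is a description of the sequence and no evidence that a factor binds there. For each of these 7 genes the AP-1 match nearest to the start is set out below (Mmp1 held another further upstream) with 10 bases on each side, all on the plus strand of GRCr8 and with the motif in capitals.

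Mmp13 (chr8:12782753-12782779): ccccaagtggTGACTCAtcactattgc
Mmp12 (chr8:12866555-12866581): acatcaacagTGAGTCAtattgaggat
Mmp3 (chr8:12925200-12925226): gaagcaattaTGAGTCAgtttgcgggt
Mmp1 (chr8:12943359-12943385): ttgtcaaccaTGAGTCAcgtagcctct
Mmp10 (chr8:12974636-12974662): agcacccacaTGAGTCAtgcttagtga
Mmp20 (chr8:13074173-13074199): atttgagacaTGAATCAtcacttgcag
Mmp7 (chr8:13132953-13132979): agcatgagaaTGAGTCAccgattccca

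A probe counted as detected where at least 50% of its spots carried the scanner's flag for a signal well above background, and a gene where at least 1 of its probes did. By this rule 29 of the 72 genes (40.3%) were detected in the control, against 57.6% of all gene names, and 29 were detected on each of the treated arrays too. Of the 72, 27 were detected on all 3 arrays, 40 on none and 5 on 1 or 2 arrays. Of all 26130 gene names, 55.1% were detected on all 3 arrays and 10675 names on none. The 40 genes that were never detected had 112 spots per array, and 0 of these spots carried the flag on any array. Their spots had a median signal of 5.02 in the control, 5.25 under the low dose and 5.64 under the high dose, and the highest single spot among them read 24.3. A signal here is the processed spot intensity in scanner units, which cannot be set against that of another probe as an amount of RNA.

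**Figure D1:**
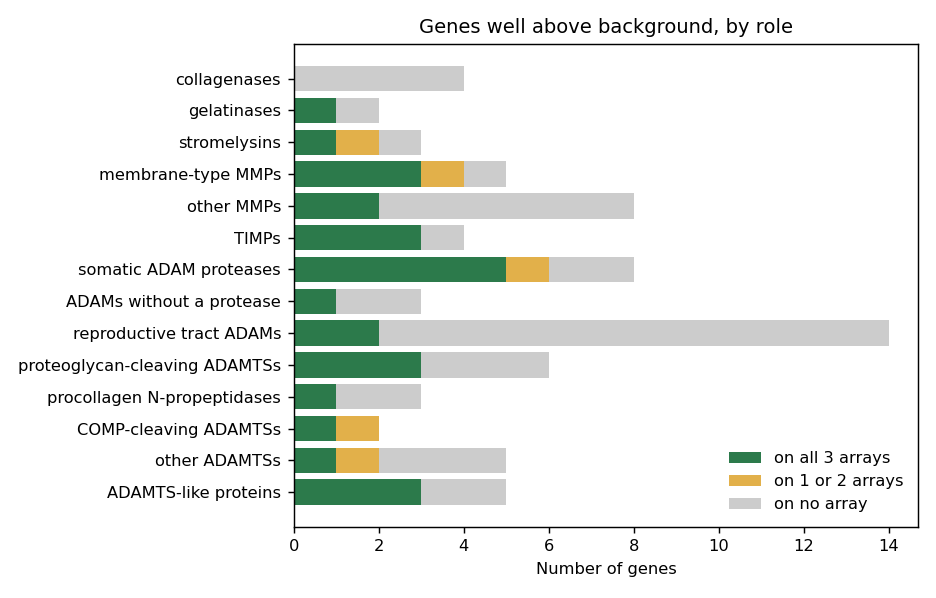
Number of genes (horizontal axis) detected on all 3 arrays (green), on 1 or 2 arrays (yellow) or on no array (grey), for each role. All 4 collagenases and 12 of 14 reproductive tract ADAMs were detected on no array, while 3 of 4 TIMPs were detected on all 3. Of all 26130 gene names, 10675 were detected on no array and 55.1% on all 3.

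No collagenase was detected in any group. The Mmp13 probe (chromosome 8, 4168554 to 4168613, rn4) had 10 spots per array, none of them well above background. Its spots ran from 4.03 to 15.8 in the control with a median of 5.40, from 4.24 to 11.4 under the low dose with a median of 5.40, and from 4.64 to 12.5 under the high dose with a median of 5.62. The 3 ranges overlapped almost wholly. Mmp8, the collagenase of neutrophils, read 4.80, 5.12 and 5.43 as the mean of 2 spots on the control, low dose and high dose arrays. Mmp1, listed in the files beside Mmp1b and related to the human interstitial collagenase, read 9.27, 11.7 and 9.61 in the same order. Mmp1b had a single spot, which read 5.13, 5.48 and 5.74. With both sides at background no fold can be given for these 4 genes, and a difference between the groups was not detectable.

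Mmp13 belongs to a row of 10 MMP genes whose probes lie within 365 kb on chromosome 8 in rn4. In map order these were Mmp13, Mmp12, Mmp1b, Mmp3, Mmp1, Mmp10, Mmp8, Mmp27, Mmp20 and Mmp7. Together they had 27 spots per array, of which 0 were well above background in the control, 1 under the low dose and 1 under the high dose. Both flagged spots were Mmp3 spots, so 9 of the 10 genes were detected on no array, where 10675 of all 26130 gene names were. Mmp12, the macrophage elastase gene, read 4.26 in the control and 5.90 under the high dose, and Mmp7, the matrilysin gene of epithelia, read 7.27 and 5.51. Mmp20, known for its role in tooth enamel, read 4.05 and 4.63.

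**Figure D2:**
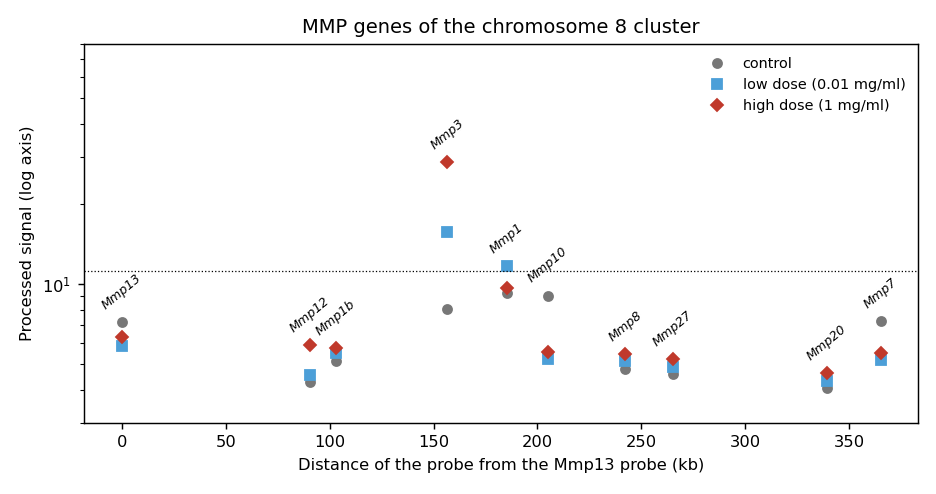
Processed signal (vertical log axis, mean over the spots of a probe) of the 10 clustered MMP genes against the distance of each probe from the Mmp13 probe in kb, for the control (grey circles), low dose (blue squares) and high dose (red diamonds). The dotted line is the highest, over the 3 arrays, of the lowest signal of a detected probe (11.2), and Mmp3 at both doses and Mmp1 under the low dose lie above it.

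The regulators known to act on the Mmp13 promoter were mostly detected. Of the 11 in a list of such transcription factors, 10 had a probe on the array and 9 were detected on all 3 arrays. The share of all gene names detected on all 3 arrays was 55.1%. Runx2 read 2332, 2269 and 2278 on the control, low dose and high dose arrays, Jun 1365, 1556 and 1599, and Fosl1 2403, 2914 and 2653. Fos itself, an immediate early gene, was not detected and read 12.4, 10.5 and 18.9. Under the high dose 0 of the 9 measured were higher than the control by a log2 ratio of at least 0.32 and 1 was lower by as much, Ets1, at a log2 ratio of -0.37 ± 0.24, where 4.82% of all genes were higher and 5.07% lower. By more than 2 errors from repeat spots, 3 were above 0 (10.7% of all genes) and 1 below (12.8%). Under the low dose Fosl2, which encodes an AP-1 subunit, was higher by that size at 0.36 ± 0.07 and Ets1 lower at -0.36 ± 0.24, where 2.51% of all genes were higher and 3.26% lower. Here and below, ± is the spot error, the error a log2 ratio takes from the scatter between repeat spots on an array. It leaves out culture, labelling and every biological difference.

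Stromelysins cleave proteoglycans and fibronectin and can activate procollagenases. Mmp3 (stromelysin 1) was the only member that was not detected in the control and was detected at both doses. It was measured by a probe of 2 spots whose 60 bases map to chr8:4325061-4325526 in rn4, a span longer than the probe itself.

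Mmp3 probe: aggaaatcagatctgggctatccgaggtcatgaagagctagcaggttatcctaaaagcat

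The Mmp3 spots read 7.12 and 8.91 in the control, 5.68 and 25.8 under the low dose, and 8.28 and 49.3 under the high dose. On each treated array only the second spot was well above background, and the first was no higher than the brighter control spot. Taken by the detection rule, Mmp3 was at least 2.16-fold higher under the high dose than in the control and higher by at least 0.33 on the log2 scale under the low dose, each against the lowest signal of a detected probe in the control. High against low dose gave a log2 ratio of 0.78 ± 0.26, the mean of 0.59 for the first spot and 0.98 for the second. The first spot could not bear out any of these differences, since it was not well above background on any array. The error of 0.26 was pooled from other probes and does not include the scatter between the 2 Mmp3 spots. Mmp10 (stromelysin 2) was not detected and read 9.04, 5.20 and 5.53 on the control, low dose and high dose arrays. Mmp11 (stromelysin 3), which acts poorly on classical matrix substrates, was detected on all arrays, with spots of 36.3 and 40.7 in the control, 40.3 and 41.1 under the low dose, and 45.7 and 54.3 under the high dose. Both high dose spots lay above all others, and the log2 ratio was 0.36 ± 0.25 for high over control (1.28-fold) and 0.02 ± 0.26 for low over control.

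The 2 gelatinase genes differed in detection. Mmp9, typical of osteoclasts and white blood cells, had 10 spots on each array and none was well above background, with medians of 5.07, 4.72 and 8.03 on the control, low dose and high dose arrays. Its probe is shown as that of a gelatinase that was not detected.

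Mmp9 probe (chr3:155992463-155992522, rn4): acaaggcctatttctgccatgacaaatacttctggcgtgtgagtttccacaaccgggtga

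Mmp2, the gelatinase of connective tissue cells, was detected by 2 probes on chromosome 19. The first read 6784 in the control, 7191 under the low dose and 6615 under the high dose. The second read 897, 930 and 933 in the same order. Over both probes the log2 ratio was -0.01 ± 0.06 for high over control and 0.01 ± 0.06 for low over control, each within 1 spot error of 0, and under centring on spike-in probes, which adds 0.16 to both, the values lay above 0.

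Of 5 membrane-type MMP genes, 3 were detected on all arrays, where 55.1% of all gene names were. Mmp14, which encodes MT1-MMP, a surface collagenase and the physiological activator of Mmp2 (chromosome 15, 32503002 to 32503061, rn4), had 10 spots per array. They ran from 4363 to 4978 in the control with a median of 4785, from 4719 to 5139 under the low dose with a median of 4938, and from 4232 to 4599 under the high dose with a median of 4411. After scaling, the high dose spots overlapped the lowest control spot and the lowest low dose spot. The log2 ratio after scaling was -0.12 ± 0.03 for high over control, -0.01 ± 0.03 for low over control and -0.11 ± 0.03 for high over low. Mmp15, the MT2-MMP gene, read 18362 and 19042 in the control, 19401 and 17537 under the low dose and 17768 and 16749 under the high dose, with a log2 ratio of -0.13 ± 0.05 for high over control. Its other probe was not detected. Mmp17, the MT4-MMP gene, read 96.5 and 99.9 in the control and 80.3 and 91.9 under the high dose, at -0.21 ± 0.15. Under centring on spike-in probes, which adds 0.16, the Mmp14 value for high over control turned to 0.04. The Mmp15 value of -0.13 turned above 0 too. Mmp16 was not detected, and Mmp24 was detected under the high dose alone, by 1 of 2 spots (12.5 and 25.5 against 17.8 and 20.02 in the control), a mean level no higher than in the control.

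**Figure D3:**
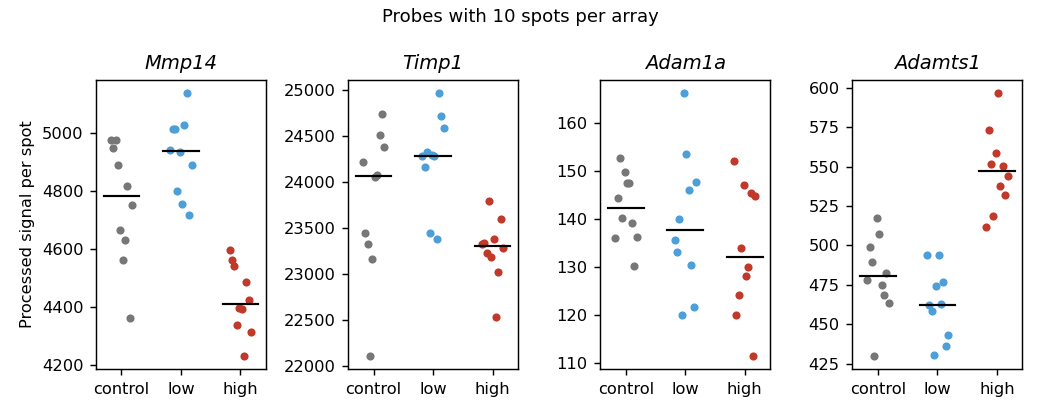
Processed signal of each of the 10 spots per array (points, vertical axes do not start at 0 and differ between panels) and their median (black line) for Mmp14, Timp1, Adam1a and Adamts1 on the control, low dose and high dose arrays. The Adamts1 spots under the high dose (512 to 597) lay above all low dose spots (431 to 494). Unscaled Mmp14 spots under the high dose lie below all low dose spots and overlap the control spots. After scaling they overlap the lowest low dose spot as well.

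Of the 8 remaining MMP genes, Mmp19 and Mmp28 were detected on all arrays. Mmp19, a broadly expressed secreted MMP, read 138 and 112 in the control, 102 and 109 under the low dose, and 110 and 102 under the high dose. All 4 treated spots lay below both control spots, with log2 ratios of -0.29 ± 0.15 for low over control and -0.24 ± 0.15 for high over control. Mmp28 (epilysin) had a single spot and read 87.0, 92.5 and 92.2 on the control, low dose and high dose arrays.

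Among the inhibitors, Timp1, Timp2 and Timp4 were detected on every array and Timp3 on none. Timp1 (chromosome X, 12542700 to 12543703, rn4) had 10 spots per array with medians of 24064 in the control, 24286 under the low dose and 23301 under the high dose, and their ranges overlapped. Its log2 ratio was -0.05 ± 0.02 for high over control and -0.03 ± 0.02 for low over control, a fold of 0.967 and 0.979, and both lay above 0 (0.11 and 0.13) under centring on spike-in probes. Timp2, which also takes part in the activation of Mmp2 by Mmp14, read 85505 and 87548 in the control, 96169 and 92374 under the low dose, and 90036 and 88141 under the high dose. After scaling it stood at 0.03 ± 0.05 for high over control and 0.07 ± 0.05 for low over control. Timp3, known to inhibit ADAM17 and the proteoglycan-cleaving ADAMTSs, read 4.62, 4.86 and 5.23, all at background.

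Timp4 was measured by 2 probes that disagreed under the low dose. The 2-spot probe read 46.2 and 59.2 in the control, 53.8 and 90.4 under the low dose, and 77.2 and 67.1 under the high dose. The single-spot probe, shown here, read 43.0, 33.6 and 49.3.

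Timp4 probe (chr4:151375800-151375859, rn4): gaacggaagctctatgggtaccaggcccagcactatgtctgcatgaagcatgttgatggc

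For low over control the probes gave log2 ratios of 0.36 and -0.41, a difference of 0.77 with a spot error of 0.41, and their mean was -0.03 ± 0.21. For high over control both were above 0, at 0.45 and 0.18, with a mean of 0.31 ± 0.20. For high over low the 2-spot probe gave 0.09 and the single-spot probe 0.59, with a mean of 0.34 ± 0.20.

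Detection of the ADAM genes is given by known role. Of 8 somatic ADAM proteases, 6 were detected in the control, where 57.6% of all gene names were. Of 14 genes known mainly from testis or epididymis, 12 were detected on no array, where 10675 of all 26130 gene names were. The remaining 3 were Adam11, Adam22 and Adam23, listed as ADAMs without a protease, and only Adam23 was detected. Genes of the testis or epididymis list were not sorted by protease activity. Adam10 and Adam17 encode the main sheddases of surface proteins. The 2-spot probe of Adam10 read 55.4 and 42.4 in the control, 64.8 and 44.1 under the low dose, and 55.8 and 39.5 under the high dose, and the other probe read 60.6, 71.5 and 64.4. The mean over both was 0.00 ± 0.18 for high over control and 0.13 ± 0.18 for low over control. Adam17 read 71.1 and 84.5 in the control, 65.5 and 69.8 under the low dose, and 65.3 and 76.7 under the high dose. High dose and control spots overlapped, and both low dose spots lay below both control spots, with log2 ratios of -0.15 ± 0.20 for high and -0.26 ± 0.20 for low over control.

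Adam9, which encodes a sheddase with a disintegrin domain, was 1 of 2 members higher by at least 0.32 on the log2 scale under the low dose, where 2.51% of all genes were. Its spots read 45.4 and 49.6 in the control, 55.1 and 80.8 under the low dose, and 54.4 and 59.4 under the high dose. All 4 treated spots exceeded both control spots. The log2 ratio was 0.43 ± 0.22 for low over control and 0.24 ± 0.24 for high over control. Adam15 had log2 ratios of -0.05 ± 0.11 and 0.07 ± 0.11 for high and low over control. Adam19 (meltrin beta) had 1 probe detected on all arrays, at 808 and 699 in the control, 755 and 653 under the low dose, and 729 and 648 under the high dose. Its other probe read 41.0 and 32.0, then 26.3 and 19.2, then 38.6 and 35.1 in the same order, and was not well above background under the low dose. Adam8, a gene of white blood cells and osteoclast fusion, was detected in the control alone, by 1 of 2 spots (26.8 and 12.4, against 5.53 and 7.88 under the low dose and 5.97 and 5.98 under the high dose). Both control spots lay above all treated spots. Taken by the detection rule, Adam8 was at least 1.64-fold lower under the high dose and 1.78-fold lower under the low dose. Each bound was set against the lowest signal of a detected probe on the treated array. The bounds depend on 1 flagged control spot, since the control spot of 12.4 was not well above background.

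Adam23, whose protein binds integrins and lacks protease activity, read 218 and 209 in the control, 239 and 197 under the low dose, and 188 and 173 under the high dose. Both high dose spots lay below all others, with log2 ratios of -0.26 ± 0.11 for high over control and -0.23 ± 0.11 for high over low. The 2 detected reproductive tract genes were Adam1a and Adam7. The 10 Adam1a spots overlapped widely between the arrays, with medians of 142, 138 and 132 on the control, low dose and high dose arrays. Adam7, known as an epididymal gene, read 705 and 680 in the control, 709 and 676 under the low dose, and 695 and 658 under the high dose, at log2 ratios of -0.05 ± 0.07 and -0.06 ± 0.07 for high and low over control. Its level rests on 1 probe. On chromosome 16 in rn4 the probes of Adam9, Adam32, Adam5, Adam3a and Adam18 lie within 306 kb, and of these 5 genes Adam9 alone was detected.

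Among the proteoglycan-cleaving ADAMTS genes, Adamts1, Adamts5 and Adamts9 were detected on all arrays and Adamts4, Adamts8 and Adamts15 on none. Adamts1 (chromosome 11, 25434383 to 25434442, rn4), which cleaves versican and aggrecan, gave the difference between doses that was largest relative to its spot error. Its 10 spots ran from 430 to 517 in the control with a median of 480, from 431 to 494 under the low dose with a median of 463, and from 512 to 597 under the high dose with a median of 547. High dose spots lay above all low dose spots and, after scaling, overlapped the 2 highest control spots. The log2 ratio was 0.17 ± 0.03 for high over control (1.13-fold), -0.11 ± 0.03 for low over control and 0.28 ± 0.03 for high over low, and under centring on spike-in probes the value for low over control turned to 0.05. Adamts5, the main aggrecanase of cartilage in mice, lies beside Adamts1, with both probes within 69.3 kb. It read 439 and 471 in the control, 450 and 466 under the low dose, and 485 and 508 under the high dose. Both high dose spots lay above the other 4, and the log2 ratios were 0.11 ± 0.08 for high over control, -0.05 ± 0.08 for low over control and 0.16 ± 0.08 for high over low. Adamts9 went the other way under the high dose, at -0.16 ± 0.08, with spots of 481 and 483 in the control, 410 and 516 under the low dose, and 426 and 446 under the high dose. Adamts4 read 9.88 in the control and 8.24 under the high dose, both at background. The probes of Adamts8 and Adamts15, neighbours within 59.6 kb on chromosome 8, were likewise undetected.

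Adamts2, which removes the amino-terminal propeptide of procollagen I, was the single detected gene of 3 procollagen N-propeptidases. Its only spot read 1483 in the control, 1541 under the low dose and 1462 under the high dose, a log2 ratio of -0.04 ± 0.09 and 0.00 ± 0.09 for high and low over control. Adamts7, which cleaves the cartilage protein COMP, read 1622 and 1518 in the control, 1494 and 1535 under the low dose, and 1468 and 1386 under the high dose. Both high dose spots lay below both control spots, at -0.15 ± 0.06, and after scaling they overlapped the low dose spots. Adamts12, its closest relative, was detected in the control alone by 1 of 2 spots. Its spots read 19.0 and 22.3 there, 4.82 and 7.39 under the low dose, and 8.54 and 9.80 under the high dose. Both control spots lay above all 4 treated spots. Taken by the detection rule, Adamts12 was at least 1.85-fold lower under the high dose and at least 2.01-fold lower under the low dose. Each bound was set against the lowest signal of a detected probe on the treated array. The bounds depend on 1 flagged control spot, since the control spot of 19.0 was not well above background.

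Among the 27 members measured on all arrays, Adamts6 had the largest log2 ratio against the control, and the largest bounds given for Mmp3, Adam8 and Adamts12 exceed it. Its spots read 28.0 and 24.4 in the control, 64.3 and 32.3 under the low dose, and 35.1 and 30.7 under the high dose. All treated spots lay above both control spots, but the 2 low dose spots were far apart, and the control spot of 24.4 was not well above background. The spot errors given for Adamts6 came from probes with all spots well above background. The log2 ratio was 0.75 ± 0.25 for low over control (1.68-fold), 0.32 ± 0.26 for high over control and -0.43 ± 0.25 for high over low. Adamts17 was detected under the low dose alone by its only spot, which read 28.2 against 16.3 in the control and 24.2 under the high dose, and its probe is shown because 1 spot decided its detection. After scaling, the low dose reading of Adamts17 was 1.66-fold its control reading, a plain ratio of 1 spot per array and no lower bound.

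Adamts17 probe (chr1:121491009-121491068, rn4): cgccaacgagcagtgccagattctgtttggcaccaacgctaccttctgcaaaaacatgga

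**Figure D4:**
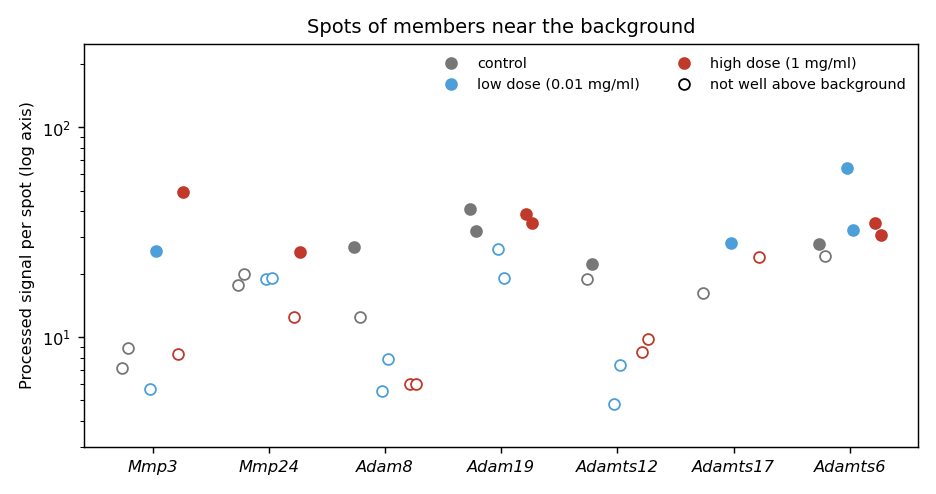
Processed signal of each spot (vertical log axis) on the control (grey), low dose (blue) and high dose (red) arrays for 7 genes near the background, with open circles for spots not well above background. For Adam19 the dimmer of 2 probes is shown. The Mmp3 spots separate on the treated arrays, where 1 spot per array is filled, while both Adam8 and both Adamts12 control spots lie above the treated ones.

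ADAMTS-like proteins share the ancillary domains of ADAMTS enzymes and have no protease domain. Of 5 such genes, Adamtsl2, Adamtsl4 and Adamtsl5 were detected on all arrays. Adamtsl2, whose protein binds latent TGF-beta binding protein, read 36.5 and 39.2 in the control, 52.6 and 44.8 under the low dose, and 59.1 and 48.3 under the high dose. All 4 treated spots exceeded both control spots, with log2 ratios of 0.48 ± 0.25 for high over control (1.40-fold) and 0.30 ± 0.25 for low over control. Adamtsl5 moved the other way under the high dose, with spots of 441 and 457 in the control, 484 and 494 under the low dose, and 373 and 396 under the high dose. Its log2 ratio was -0.24 ± 0.08 for high over control and -0.31 ± 0.08 for high over low, from the detected 1 of 2 probes. Adamtsl4 stood at -0.09 ± 0.15 for high and 0.12 ± 0.15 for low over control.

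Counted over the family, few members differed by a fixed size. For high over control, 2 of 27 measured members were higher by a log2 ratio of at least 0.32 (Adamtsl2 and Mmp11), where 4.82% of all 14496 measured genes were, and 0 were lower by as much, where 5.07% of all genes were. Adamts6 and Timp4 lay just under this size. For low over control, 2 of 27 were higher by as much (Adamts6 and Adam9; 2.51% of all genes) and 0 lower (3.26%). For high over low, 3 of 28 were higher (Mmp3, Timp4 and Mmp11, against 4.59% of all genes) and 1 lower (Adamts6, against 3.81%). Of the Timp4 probes, only the single-spot one was past this size. No measured member was 2-fold apart in any of the 3 comparisons. Of all genes, 0.0621% were 2-fold higher and 0.0552% lower for high over control, 0.0684% and 0.0479% for low over control, and 0.0483% and 0.0276% for high over low. The median log2 ratio of the measured members was -0.05 for high over control, -0.03 for low over control and -0.03 for high over low, against -0.01, 0.00 and -0.01 for all measured genes. The 2 comparisons with the control share that array and are given side by side.

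Measured against spot error, 8 of 27 members lay more than 2 spot errors from 0 for high over control. Adamts1 was the 1 above 0, where 10.7% of all genes were, and the 7 below 0 were Mmp14, Mmp15, Timp1, Adam23, Adamts7, Adamts9 and Adamtsl5, where 12.8% of all genes were. The arrays were scaled to a common 75th percentile of signal. Centring on spike-in probes instead shifts every gene up by 0.16 and so turns any value between -0.16 and 0. Under it Mmp14 and Timp1 stood at 0.04 and 0.11, Adamts7 at 0.005 and Adamts9 at -0.003. Mmp15, at -0.13 before the shift, turned above 0 too. Adam23 and Adamtsl5 stayed below 0, at -0.10 and -0.08. For low over control, Adamts6 was above 0 by more than 2 spot errors (4.27% of all genes) and Mmp19, Adam19 and Adamts1 below (4.57%). Here too, centring on spike-ins added 0.16 to every value. For high over low, where that centring shifts genes by 0.00, Mmp3, Adamts1 and Adamts5 were above 0 (9.62%) and Mmp14, Adam23 and Adamtsl5 below (10.6%). Mmp3 enters this count by an error pooled from other probes, each with every spot flagged. Only 1 of its 2 spots was flagged on each treated array. The Mmp3 spots read 5.68 and 25.8 under the low dose, and 8.28 and 49.3 under the high dose. The pooled error does not include this scatter, so the precision of the Mmp3 value is not known.

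**Figure D5:**
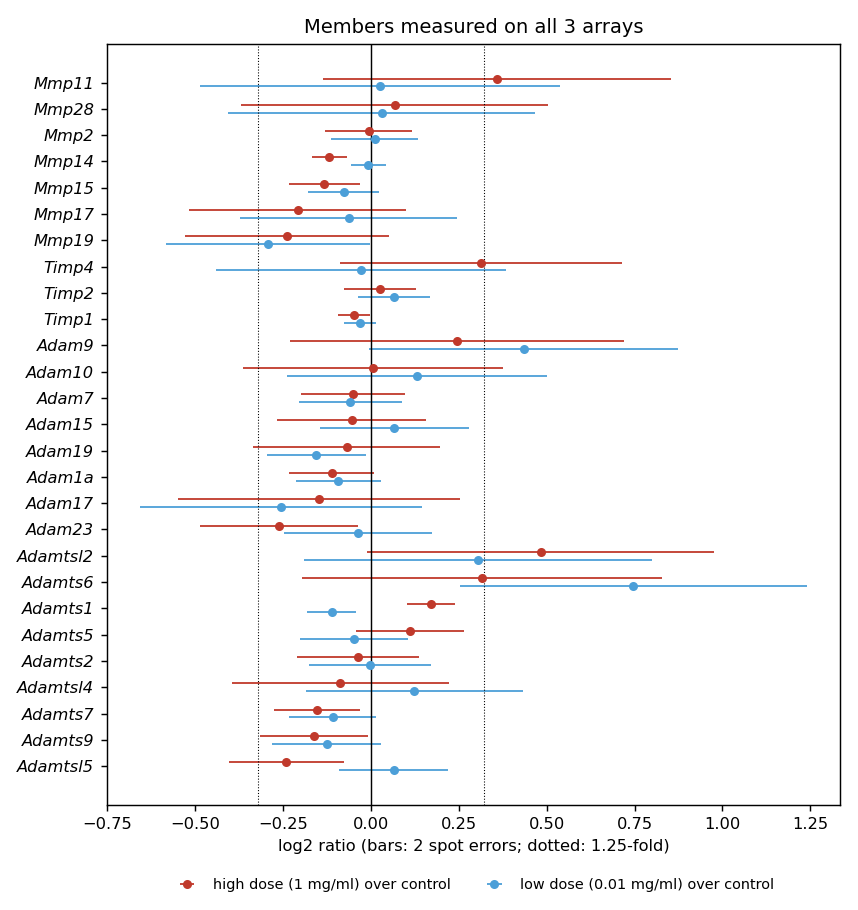
Log2 ratio over control (horizontal axis) of the 27 members detected on all 3 arrays, for the high dose (red) and the low dose (blue), with bars of 2 spot errors and dotted lines at a log2 ratio of 0.32 in each direction. Most bars cross 0, Adamts6 under the low dose lies furthest from it, and Adamts1 lies above 0 under the high dose and below 0 under the low dose.

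Of 22 activators, inhibitors and partners of these proteases, 15 were measured and 0 were apart from the control by 0.32 at either dose, where 4.82% of all genes were higher and 5.07% lower for high over control and 2.51% and 3.26% for low over control. More than 2 spot errors from 0 for high over control were 5 above (10.7% of all genes) and 3 below (12.8%). Bsg (basigin), an inducer of MMPs, stood at 0.21 ± 0.05 for high over control, Plat, encoding tissue plasminogen activator, at 0.20 ± 0.07, and Reck, a membrane inhibitor of MMPs, at 0.08 ± 0.07. Furin and Pcsk6, which encode convertases that activate membrane-type MMPs or ADAMTSs, stood at -0.18 ± 0.09 and -0.19 ± 0.06. Plau, for urokinase, was not detected. Of 9 partners of ADAM10 and ADAM17, 7 were measured and 0 were apart from the control by that size at either dose. Of 15 substrates shed by these enzymes, 9 were measured, and for high over control 0 were higher by that size and Notch2 was lower at -0.42 ± 0.22, with Sdc4 (syndecan 4) just under that size at 0.315 ± 0.05. Of 14 other metalloproteinase genes, 6 were measured, and for high over control Tll2, a tolloid relative of Bmp1, was lower at -0.49 ± 0.31, while Bmp1, the procollagen C-proteinase, stood at 0.00 ± 0.05.

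As a check of the cells, all 7 osteoblast markers (Runx2, Sp7, Alpl, Ibsp, Bglap, Col1a1 and Spp1) were detected on all 3 arrays. Of all gene names, 55.1% were detected on all 3. Of 6 macrophage or osteoclast markers, 4 were detected in the control, where 57.6% of all gene names were, and 3 on all arrays. Their summed signals were 250, 254 and 265 on the control, low dose and high dose arrays, with Ptprc and Calcr at background, and Ctsk was detected in the control alone. Of 4 endothelial markers 2 were detected on all arrays, as were 2 of 4 chondrocyte markers and 1 of 3 adipocyte markers. These counts stand beside the same share of 55.1%. Their summed signals were 209, 206 and 245 for the endothelial, 481, 605 and 450 for the chondrocyte and 142, 160 and 155 for the adipocyte markers. Of the markers past 0.32, Pecam1 stood at 0.42 ± 0.15 for high over control and 0.40 for high over low, and Sox9 at 0.41 for low over control and -0.52 for high over low. Cd68 and Csf1r, both macrophage markers, went opposite ways, at 0.39 and -0.37 for low over control and -0.34 and 0.88 for high over low. Tek, Kdr, Col2a1, Acan, Adipoq and Plin1 were at background. The cells were 1 clonal line, so a signal of such a marker is no count of another cell type, and its origin was not tested. Cell number and RNA per cell cannot be told apart in RNA from whole cultures.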

How the data were processed

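The authors deposited one intensity table per array. Per the file headers it came from Agilent Feature Extraction 10.7.3.1 (protocol GE1_107_Sep09, array design 028279, probe coordinates on rn4), with background subtracted and signals detrended within each array. Flags for spots well above background are other values in the same deposited files. The deposited series table is a ratio: each column equalled the processed signal divided by 1 constant (823, 849 and 823 for high, low and control), with medians of 0.106, 0.106 and 0.106 in that order. How its constants were set is unknown.

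Signals were put on the log2 scale and reduced by log2 of their array's 75th percentile over 58717 non-control spots (937, 964 and 926). Outlier spots were left out unless every spot of a probe was flagged, spots were averaged per probe, and a gene's ratio was the mean over its probes detected on both arrays. No spot was saturated. The spot error used the SD between repeat spots, pooled in 20 bins of level over probes with all spots well above background. It was 0.256 in the dimmest bin and 0.0508 in the brightest. A gene detected on 1 of 2 arrays got a lower bound, set against the dim array's lowest detected level. Where the level measured there was higher, as for Adamts17, the plain ratio to it was taken instead, which is no lower bound. Precision is limited by having 3 arrays.

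Of 84 member probes, 66 matched a RefSeq accession of GRCr8, which named the same gene each time. The ratio calculation was tested on simulated data. Named members were all collagenases, gelatinases, stromelysins and TIMPs, Mmp14 and a set of ADAM and ADAMTS genes, plus the 6 highest and 6 lowest ratios of each comparison and any bound of at least 2-fold. Of the related lists it named those past 0.32. Every other member or related gene in the text, such as Mmp7, Adam7, Adamts17 and Plat, was added as an example after its values were seen. The members, lists and tests were chosen with earlier results of these data known. Alternatives covered background correction (limma 3.58.1, normexp), scaling, the deposited table, the filter, outlier spots and the choice of probe.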

Additional observations from a re-analysis of the deposited data

How the results depend on the processing

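No paired analysis was possible because each group holds 1 array. Having 1 array per group limits every value, and signal over background limits those of dim genes. Members apart by a log2 ratio of at least 0.32 numbered 2 for high over control, and 0 with normexp, 6 with centring on spike-in probes, 4 with quantile normalization, 4 with the authors' deposited table and 21 with no filter on dim probes. For low over control they numbered 2, and 0 with normexp, 22 with no filter and 1 with only probes whose spots were all above background on all arrays. For high over low they numbered 4, and 1 with normexp, 17 with no filter and 2 with only such probes. Members at least 2-fold apart numbered 0, and with no filter 3 for high and 2 for low over control. Members more than 2 spot errors from 0 numbered 8, 4 and 6 in the 3 comparisons, and 1, 1 and 3 with normexp and 15, 17 and 13 with no filter. No such count is given for spike-in centring, since the spot errors there were read at shifted levels. The medians of -0.05 and -0.03 over control became 0.11 and 0.13 with spike-in centring, which moved the median of all genes by 0.16, and that for high over low became 0.12 with no filter. The normexp offset of 50 compresses the ratios of dim probes. Among named members, normexp put Adamts6 at 0.17 and Adam9 at 0.16 for low over control, Adamtsl2 at 0.15 and Timp4 at 0.11 for high over control, and Mmp3 at 0.36 for high over low. No named member's value apart by at least 0.32 changed sign under any of these alternatives.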
